A study of Mus musculus with 8 samples.

Results

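The genes described here are 8 genes of cholesterol synthesis: *Hmgcs1*, *Fdps*, *Fdft1*, *Sqle*, *Lss*, *Cyp51* and *Dhcr7*, which encode enzymes, and *Srebf2*, which encodes a regulator of the pathway. They were chosen by name among the 23343 genes of the RNA tables, where each had 1 row, and in the H3K27ac peak lists by a peak annotated to the gene or within 2 kb of its start site. All samples came from adult testis of C57BL/6 mice, as pachytene spermatocytes (PS, in meiotic prophase) or round spermatids (RS, haploid cells after meiosis), separated by sedimentation through albumin. H3K27ac, the acetylation of histone H3 that marks active promoters and enhancers, was profiled by ChIP-seq in wild-type PS and RS. RNA was sequenced in PS and RS of *Rnf8;Scml2* double knockout (dKO) males, which lack both *Rnf8* (a ubiquitin ligase) and *Scml2* (an X-linked Polycomb protein) in every cell. Each stage had 2 libraries per assay, 8 in all. No wild-type RNA is analysed here, so the comparison is between stages and not between genotypes, and RNA and H3K27ac come from different genotypes.

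Cholesterol is built from acetyl-CoA. Hmgcs1 acts near the entry of the path, and Fdps assembles isoprene units into farnesyl diphosphate. Fdft1 (squalene synthase) joins a pair of these into squalene, Sqle adds an epoxide, and Lss closes the rings to give lanosterol. Cyp51 then removes a methyl group, which gives a sterol known as a meiosis-activating sterol, and Dhcr7 reduces 7-dehydrocholesterol to cholesterol near the end of the path. Srebf2 encodes SREBP-2, a membrane-bound transcription factor that is released when sterols are scarce and then raises transcription of most of these enzymes. Sterols enter the membranes of germ cells, and Leydig cells of the testis use cholesterol to make androgens.

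The start sites of 5 of the 8 genes are in the RefSeq promoter table (GRCm38.p6, the same chromosomes as mm10), which holds none for *Fdps*, *Fdft1* and *Sqle*. Their upstream sequences are shown because an H3K27ac peak overlapped each of them. Each run reads 5′ to 3′ on the strand of the gene and ends at the base before the annotated start, or earlier where an annotated exon begins. Capitals mark 5 motifs, searched on both strands: the CCAAT box (CCAAT), the GC box (GGGCGG), the CRE half-site (TGACG), a sterol regulatory element (TCACNCCAC) and the E-box (CACGTG). A motif on the opposite strand appears as its reverse complement, and none of the matches overlapped another.
*Hmgcs1*, chr13:119690101-119690350, plus strand: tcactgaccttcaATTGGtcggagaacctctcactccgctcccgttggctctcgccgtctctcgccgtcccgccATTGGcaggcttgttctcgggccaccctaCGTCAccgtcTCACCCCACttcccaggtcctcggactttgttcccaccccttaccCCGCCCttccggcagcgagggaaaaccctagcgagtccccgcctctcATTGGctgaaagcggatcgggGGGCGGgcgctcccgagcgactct
*Cyp51*, chr5:4104698-4104947, minus strand: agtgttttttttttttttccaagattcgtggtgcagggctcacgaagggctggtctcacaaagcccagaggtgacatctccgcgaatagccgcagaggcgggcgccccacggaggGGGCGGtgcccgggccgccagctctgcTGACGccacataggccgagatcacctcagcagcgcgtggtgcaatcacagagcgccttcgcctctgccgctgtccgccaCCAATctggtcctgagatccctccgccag
*Srebf2*, chr15:82147019-82147268, plus strand: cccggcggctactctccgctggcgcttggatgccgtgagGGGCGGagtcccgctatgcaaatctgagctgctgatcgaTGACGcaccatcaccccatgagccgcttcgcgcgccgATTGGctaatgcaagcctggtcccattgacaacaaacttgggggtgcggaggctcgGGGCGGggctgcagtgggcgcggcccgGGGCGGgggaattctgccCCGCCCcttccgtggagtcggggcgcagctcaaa
*Lss*, chr10:76531355-76531564, plus strand: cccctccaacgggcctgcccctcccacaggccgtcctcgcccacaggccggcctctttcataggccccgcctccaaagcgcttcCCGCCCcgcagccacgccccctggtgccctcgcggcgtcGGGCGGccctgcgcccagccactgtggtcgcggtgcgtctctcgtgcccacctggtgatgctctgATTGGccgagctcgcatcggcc
*Dhcr7*, first start site, chr7:143822917-143823166, plus strand: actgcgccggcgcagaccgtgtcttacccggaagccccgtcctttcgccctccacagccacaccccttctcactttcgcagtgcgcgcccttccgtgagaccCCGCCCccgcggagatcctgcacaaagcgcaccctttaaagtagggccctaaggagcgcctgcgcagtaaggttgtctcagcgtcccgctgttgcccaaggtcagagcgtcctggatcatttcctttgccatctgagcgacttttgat
*Dhcr7*, internal start site, chr7:143829964-143830138, plus strand: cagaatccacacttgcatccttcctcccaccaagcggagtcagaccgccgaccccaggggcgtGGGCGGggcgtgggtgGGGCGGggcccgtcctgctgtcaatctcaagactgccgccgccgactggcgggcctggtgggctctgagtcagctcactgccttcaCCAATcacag

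The sterol regulatory element letters occurred once, in *Hmgcs1*, 137 bases before its RefSeq start, and 1.05% of the 32851 promoters in the table hold them in the 250 bases before the start. A CRE half-site lay 108 bases before the start of *Cyp51*, 172 before that of *Srebf2* and, on the opposite strand, 147 before that of *Hmgcs1*, and 17.8% of all promoters hold one. CCAAT boxes were found in *Hmgcs1* (3), *Cyp51*, *Srebf2*, *Lss* and upstream of the internal start of *Dhcr7* (1 each), against 33.8% of all promoters. A GC box was in every one of the 6 stretches, against 32.7% of all promoters. The E-box letters were in none of the stretches shown and are in 6.02% of all promoters. These matches are letters in a window and say nothing about binding. Only the exact letters given were searched, so a stretch without a match may still hold another form of the motif. The deposited start site lay 111 bases inside that of RefSeq for *Hmgcs1* and 22 bases inside for *Lss*, and was identical for the other 3 genes.

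The RNA libraries held 9655405 to 12289694 reads on genes, and 14647 genes with at least 10 reads in at least 2 libraries were tested. Genes were called when the edgeR quasi-likelihood test gave an adjusted p under 0.05 and a change of at least 1.5-fold: 30.4% of genes were called higher and 27.6% lower in RS than in PS. Stage markers went with the labels, since all 6 spermatid markers were called higher in RS and 5 of 7 spermatocyte markers lower. *Rnf8* kept 50 to 110 reads per library and *Scml2* 40 to 98, with no wild-type library to set them against, so they do not check the labels. The 6 Leydig markers were all called lower in RS, with a summed RPKM of 729 and 547 in PS against 68.3 and 42.6 in RS. All 6 were higher in PS replicate 1 than in PS replicate 2. The 4 macrophage markers were all called higher in RS, with a summed RPKM of 1.76 and 2.41 in PS against 13.6 and 13.1 in RS, *Csf1r* being at 6.68 and 5.81 in RS. Of these, *Cd68* (4 and 6 reads in PS, 46 and 33 in RS) and *Adgre1* (6 and 9, then 86 and 81) passed the read filter only through RS. The Leydig marker *Lhcgr* (68 and 36 reads in PS, 8 and 5 in RS) passed it only through PS. Passing in this way favours a call in that direction. The 6 Sertoli markers summed to 5.18 to 12.9, with 1 (*Fshr*) at 0 reads in PS replicate 2 and RS replicate 2. Of these 6, 1 (*Wt1*) was called higher in RS and 0 lower. The 3 peritubular markers summed to 2.00 to 3.22, with 0 called higher and 0 lower. Of 7 markers of spermatogonia, 3 were called higher in RS, with a summed RPKM of 40.6 and 27.7 in PS and 52.1 and 49.2 in RS. In such bulk samples, a change in the share of a cell type and a change in RNA per cell cannot be told apart.

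In RNA, 5 of the 8 genes were called higher in RS (*Cyp51*, *Sqle*, *Fdft1*, *Fdps* and *Srebf2*), 1 was called lower (*Lss*), and *Hmgcs1* and *Dhcr7* were not called. The median change of the 8 was +0.63 on the log2 scale, against +0.0090 over all genes tested. RPKM of PS and RS did not overlap for 7 of the 8, with 6 higher in RS and *Lss* lower, where 40.9% of all tested genes were higher and 42.7% lower without overlap. The 3 genes whose profile over the 4 libraries was closest to the median of the 8, by Euclidean distance of log2(RPKM + 1), were *Fam174a*, *Ccdc7* and *Srpr*, at distances of 0.21, 0.23 and 0.25.

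**Figure D1:**
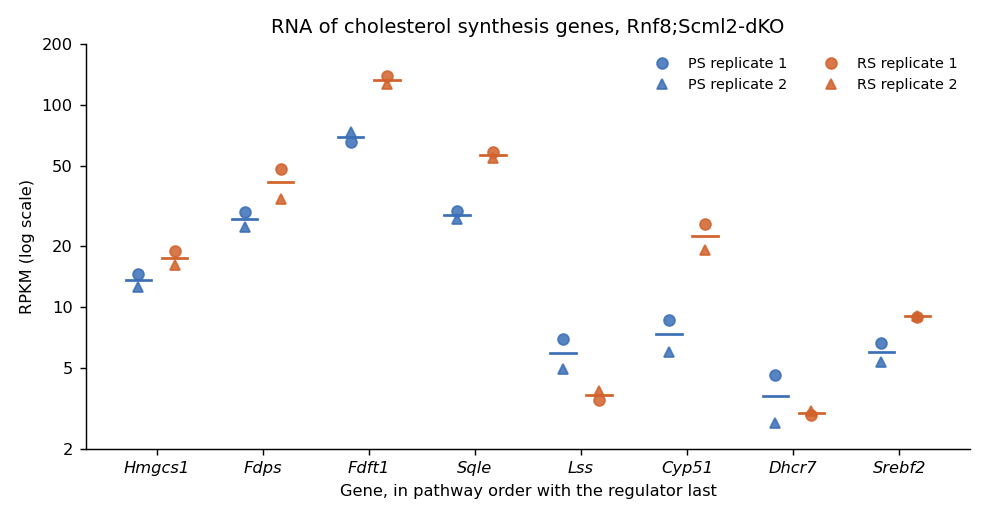
RPKM (log axis) of the 8 genes in the 4 dKO libraries, PS in blue and RS in orange, circles for replicate 1, triangles for replicate 2 and horizontal lines for the means. *Cyp51* shows the widest gap between stages, from 6.04 and 8.67 in PS to 19.2 and 25.9 in RS, and *Dhcr7* is the only gene whose stages overlap.

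*Cyp51* (chr5:4080674-4104697, minus strand) had the largest change of the set. It held 430 and 292 reads in PS and 1580 and 987 in RS, or 8.67 and 6.04 RPKM against 25.9 and 19.2. Both RS libraries thus lay above both PS libraries, and the mean rose from 7.35 ± 1.86 to 22.6 ± 4.73 RPKM (SD, n = 2 each). The log2 fold change was 1.67 ± 0.21 (SE, edgeR adjusted p = 1.9e-04), a 3.17-fold rise, and it was called in all 12 alternatives (1.48 to 1.97). By mean RPKM, *Cyp51* had rank 5 of the 8 in PS, where its values overlapped those of *Srebf2*, and rank 4 in RS, above *Hmgcs1* without overlap.

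Both enzymes that make squalene and its epoxide rose. *Fdft1* (chr14:63145150-63177793, minus strand), the first enzyme committed to sterols, was the most abundant of the 8 in both stages. It was at 65.2 and 73.5 RPKM in PS and at 139 and 127 in RS, and RS replicate 1 placed it at percentile 97.2 of all genes. Its log2 fold change was 0.98 ± 0.13 (SE, edgeR adjusted p = 2.7e-04). *Sqle* (chr15:59315092-59331193, plus strand), which catalyses a rate-limiting oxidation, was at 29.8 and 27.3 RPKM in PS and 58.3 and 54.6 in RS. Its log2 fold change was 1.02 ± 0.13 (SE, edgeR adjusted p = 1.6e-04). Neither gene had overlapping stages, and both were called in all 12 alternatives. *Fdft1* shares 774 bases of its 3′ end with *Ctsb* on the opposite strand. *Ctsb* held 520 and 238 reads in PS and 665 and 463 in RS, against 2127 and 2336 and then 5567 and 4267 for *Fdft1*. The sources do not state that counting used strand, so reads in the shared part cannot be told apart.

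*Fdps* (chr3:89093588-89101967, minus strand) was at 29.6 and 25.1 RPKM in PS and at 48.3 and 34.4 in RS. The stages did not overlap, but the RS libraries differed from each other more than the PS libraries did. Its log2 fold change was 0.64 ± 0.19 (SE, edgeR adjusted p = 0.019). The call ended without RS replicate 1 (0.46, edgeR adjusted p = 0.13) and without PS replicate 2 (0.57, under 1.5-fold).

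*Srebf2* (chr15:82147269-82204960, plus strand), the gene of the regulator SREBP-2, was at 6.64 and 5.40 RPKM in PS and 8.93 and 9.10 in RS. Both RS libraries were higher than both PS libraries, and the log2 fold change was 0.62 ± 0.16 (SE, edgeR adjusted p = 0.0090), or 1.54-fold. Without PS replicate 2 it was 0.53, under 1.5-fold. *Hmgcs1* (chr13:119690462-119708077, plus strand), at the entry of the pathway, was at 14.6 and 12.7 RPKM in PS and 18.9 and 16.2 in RS. Its stages did not overlap and the edgeR adjusted p was 0.044, but the log2 fold change of 0.41 ± 0.15 (SE) was 1.33-fold and under the limit for a call. Without RS replicate 2 it reached 0.62 and was called (edgeR adjusted p = 0.039).

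*Lss* (chr10:76531627-76553934, plus strand), the enzyme between *Sqle* and *Cyp51* in the path, was the only one of the 8 called lower in RS. It was at 6.95 and 4.97 RPKM in PS and at 3.50 and 3.88 in RS, so that both RS libraries lay below both PS libraries. The log2 fold change was −0.65 ± 0.21 (SE, edgeR adjusted p = 0.025). The call ended without PS replicate 1 (−0.44, edgeR adjusted p = 0.11), RS replicate 1 (−0.49, 0.21) or RS replicate 2 (−0.62, 0.12). It also ended with DESeq2 (adjusted p = 0.053), with isoform rows (edgeR adjusted p = 0.058) and with limma on log2(RPKM + 0.1) (adjusted p = 0.051) or log2(RPKM + 1) (−0.56, under 1.5-fold), in 7 of 12 alternatives in all. *Lss* shares 8064 bases with *4930483K19Rik* on the opposite strand, which rose from 1.11 and 1.39 RPKM in PS to 6.81 and 7.01 in RS (log2 fold change 2.52, edgeR adjusted p = 1.2e-04), and reads of the shared part cannot be told apart.

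*Dhcr7* (chr7:143823167-143848410, plus strand) was the lowest of the 8 in both stages. It was at 4.64 and 2.69 RPKM in PS and at 2.94 and 3.08 in RS. Both RS values lay between the PS values, with a log2 fold change of −0.24 ± 0.27 (SE, edgeR adjusted p = 0.46), and without PS replicate 1 the change was +0.16. Of the 8 genes, all but *Fdft1* were higher in PS replicate 1 than in PS replicate 2. So were all 6 Leydig markers (summed RPKM 1.33 times as high), all 6 Sertoli markers (2.48 times), all 3 peritubular markers (1.5 times) and 6 of 7 markers of spermatogonia (1.47 times), whereas 0 of 6 spermatid markers were (0.579 times). The Leydig markers fell in RS as *Lss* did, and moved against the 5 genes called higher. Macrophage markers moved with those 5. The part of any of these cell types in the values was not tested.

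By level per length, *Fdft1* led in both stages, followed by *Sqle* and *Fdps*, with *Dhcr7* last. In PS the neighbours *Sqle* and *Fdps*, *Cyp51* and *Srebf2*, and *Srebf2* and *Lss* overlapped, whereas in RS no neighbours did. RS thus spanned a wider range, from 3.01 ± 0.093 RPKM for *Dhcr7* to 133 ± 8.80 for *Fdft1* (SD, n = 2). The ratio of *Sqle* to *Lss*, enzymes of consecutive steps, was 4.28 and 5.50 in PS and 16.6 and 14.1 in RS. Its shift follows from the opposite calls of these genes and adds no further evidence. The call of *Lss* held in 5 of 12 alternatives.

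None of the other enzymes of the pathway examined was called higher in RS. Of these 13 enzymes, 0 were called higher, 7 were called lower and 6 were not called, beside the 30.4% and 27.6% of all genes. Their median log2 fold change was −0.94. With no adjustment, 0 of the 13 were higher and 7 lower at edgeR p under 0.05, and DESeq2 gave the same counts. Of all 14647 genes tested, 9931 were under 0.05 in either direction with edgeR. Without RS replicate 1 only 2 were called lower, without RS replicate 2 only 3. The 3 largest changes called were in enzymes of the steps after Cyp51. *Lbr*, a protein of the nuclear membrane that also reduces sterols, fell from 21.9 and 18.9 RPKM to 5.21 and 5.11 (log2 fold change −1.94 ± 0.15 SE, edgeR adjusted p = 1.4e-05). *Tm7sf2*, a reductase for the same step, fell from 3.56 and 3.43 to 0.580 and 1.61 (−1.66 ± 0.43). *Msmo1*, a methylsterol oxidase, fell from 8.08 and 3.65 to 2.51 and 2.33 (−1.23 ± 0.36). The RPKM ratio of *Cyp51* to *Lbr*, set side by side after their values were seen, was 0.396 and 0.320 in PS and 4.98 and 3.76 in RS.

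**Figure D2:**
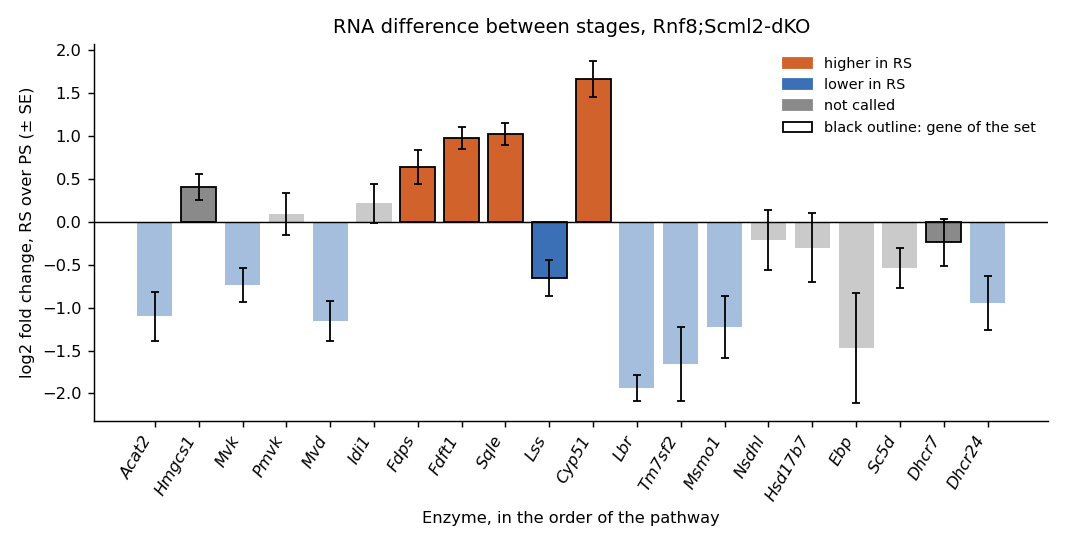
The log2 fold change of RNA, RS over PS, with its SE from edgeR, for 20 enzymes in pathway order; orange bars were called higher, blue lower and grey not called, and black outlines mark enzymes of the set of 8. *Fdps*, *Fdft1*, *Sqle* and *Cyp51* rise above 0, while *Lss* between them and *Lbr*, *Tm7sf2* and *Msmo1* after them lie below it.

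Genes around the pathway were counted beside the 30.4% of all genes called higher and the 27.6% called lower, and several of the counts are near those shares. Of 5 genes that draw on the isoprene units for other products, 1 was called higher and 3 lower. *Pdss1* (coenzyme Q side chain) rose from 0.278 and 0.440 RPKM to 0.853 and 1.02. With 5 and 8 reads in PS and 19 and 19 in RS, *Pdss1* passed the read filter only through RS, which favours a call in that direction. Its partner *Pdss2* fell from 3.66 and 2.59 to 1.25 and 0.766, and *Dhdds* (dolichol synthesis) fell from 18.5 and 14.9 to 6.25 and 6.36. Of 10 genes that control SREBP, 3 were called higher and 4 lower. *Rnf139*, a ubiquitin ligase of the endoplasmic reticulum, rose from 35.5 and 30.8 RPKM to 112 and 130 (log2 fold change 1.91). *Mbtps2*, an X-linked gene for a protease that releases SREBP, rose from 0.439 and 0.206 to 0.715 and 0.814, and *Erlin1*, which binds sterols, fell from 33.4 and 33.6 to 12.7 and 14.5. Of 14 genes tested for uptake, transport, storage and efflux, 5 were called higher and 4 lower. *Lrp8* (a lipoprotein receptor) rose from 1.09 and 0.908 to 3.0 and 3.64 RPKM, and *Osbp* (oxysterol binding) rose from 8.76 and 9.62 to 24.6 and 22.2. *Soat1*, which esterifies cholesterol for storage, fell from 7.54 and 7.39 to 2.82 and 2.80. Over all 43 genes of these lists, 42 were tested, with 9 called higher and 18 lower. Without RS replicate 1 the counts were 5 and 9, and without RS replicate 2 also 5 and 9.

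In wild-type cells, every one of the 8 start sites had an H3K27ac peak within 2 kb in all 4 samples, and the peak covered the start site itself in all but 1 case, *Dhcr7* in RS replicate 2. The level used is the highest fold enrichment of a peak that overlaps the 2 kb on either side of the start site. Each peak takes the value of its strongest summit, which need not lie within the 2 kb. Fold enrichment is the fragments at the summit plus 1 over the background of the same sample plus 1. That background was 0.723 to 1.46 fragments and is the only measure of depth in the lists. The 8 genes had a median of 20.6 and 20.3 in PS and of 19.3 and 15.1 in RS, against 14.8 and 16.4 and then 13.4 and 9.87 over the 13699 start sites tested. RS replicate 1 had the most peaks, 74919 against 41095 to 49434 in the others.

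None of the 8 start sites was called different between stages by limma on log2(fold enrichment + 1). Before adjustment, 0 of 8 were under 0.05 as well, where 5277 of all 13699 start sites were. Of all start sites tested, 4.56% were called higher in RS and 11.3% lower. Without overlap, 1 of the 8 (*Cyp51*) was higher in RS and 4 (*Fdft1*, *Sqle*, *Lss* and *Srebf2*) were lower, against 14.6% and 58.1% of all start sites. The median log2 difference was −0.43 over all start sites and −0.21 over the 8. Centring each sample on its median moved the split of calls over all start sites from 28.7% to 51.6% higher, with 12.1% of start sites called higher, and 1 of the 8, *Cyp51*, was then called. Before adjustment, 4 of the 8 were then higher in RS at limma p under 0.05 and 0 lower, and quantile normalization gave the same counts. Of all 13699 start sites, 5361 were under 0.05 in either direction after centring and 5573 after quantile normalization.

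**Figure D3:**
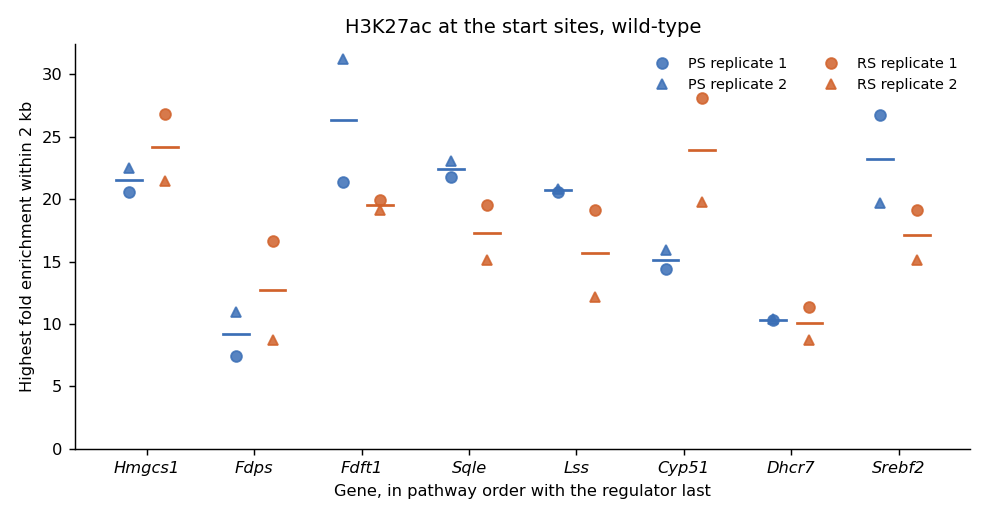
Highest fold enrichment of H3K27ac within 2 kb of each start site in the 4 wild-type samples, PS in blue and RS in orange, circles for replicate 1, triangles for replicate 2 and lines for the means. Both RS samples lie above both PS samples for *Cyp51* alone, from 14.4 and 15.9 to 28.1 and 19.7.

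At *Cyp51*, fold enrichment was 14.4 and 15.9 in PS and 28.1 and 19.7 in RS (34 and 28 fragments at the summit, then 68 and 33). The log2 difference was +0.61 ± 0.24 (SE, limma adjusted p = 0.15). It was +1.00 ± 0.12 (limma adjusted p = 0.012) after centring and +1.01 (0.015) after quantile normalization, and over the alternatives the adjusted p lay between 0.012 and 0.44. Without RS replicate 1 the difference was +0.36, and without RS replicate 2 it was +0.85. Testing only start sites with a peak in all 4 samples gave the same difference with a limma adjusted p of 0.035. The peak, which covers the upstream sequence shown with its CRE half-site, was 2255 and 2174 bases wide in PS and 3038 and 2536 in RS. Within each sample, *Cyp51* moved from percentile 48.6 and 49.9 of the tested start sites in PS to 92.1 and 87.6 in RS.

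*Hmgcs1* was at 20.6 and 22.5 in PS and at 26.9 and 21.5 in RS, where the stages overlapped (+0.15 ± 0.20 SE, limma adjusted p = 0.59). After centring, the *Hmgcs1* difference was +0.55 ± 0.11 (SE, limma adjusted p = 0.043), under the 1.5-fold limit for a call. After quantile normalization it was +0.54 (limma adjusted p = 0.033), also under that limit. Its percentile among tested start sites was 69.3 and 70.0 in PS and 90.4 and 90.5 in RS. *Fdps* had a weak peak, at 7.41 and 11 in PS and 16.7 and 8.71 in RS, and the highest and second lowest of the 4 values were both from RS. Its difference was +0.39 ± 0.39 (SE, limma adjusted p = 0.48), and +0.78 ± 0.25 (limma adjusted p = 0.11) after centring. *Dhcr7* was at 10.3 and 10.4 in PS and 11.4 and 8.71 in RS, and the RS values lay on either side of the PS values. The *Dhcr7* peak had its summit 643 to 655 bases upstream of the start site in every sample and is annotated also to *Nadsyn1*, the neighbour on the opposite strand.

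*Fdft1* and *Sqle*, whose RNA was higher in RS, had lower fold enrichment there. *Fdft1* was at 21.4 and 31.2 in PS and at 19.9 and 19.2 in RS (−0.39 ± 0.25 SE, limma adjusted p = 0.29). *Sqle* was at 21.8 and 23.0 in PS and at 19.5 and 15.1 in RS (−0.36 ± 0.20 SE, limma adjusted p = 0.25). After centring, both differences were within 0.1 of 0 (0.0077 ± 0.22 and 0.030 ± 0.11 SE), so their direction depends on the scaling. *Srebf2* was at 26.8 and 19.7 in PS and at 19.1 and 15.1 in RS, close together at 19.7 and 19.1 in 1 sample of each stage. *Lss* was at 20.6 and 20.8 in PS and at 19.1 and 12.2 in RS, and without RS replicate 1 it was called lower (−0.72, limma adjusted p = 0.046). The differences of *Lss* and *Srebf2* were −0.41 ± 0.27 and −0.41 ± 0.25 (SE), and −0.018 and −0.019 after centring.

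**Figure D4:**
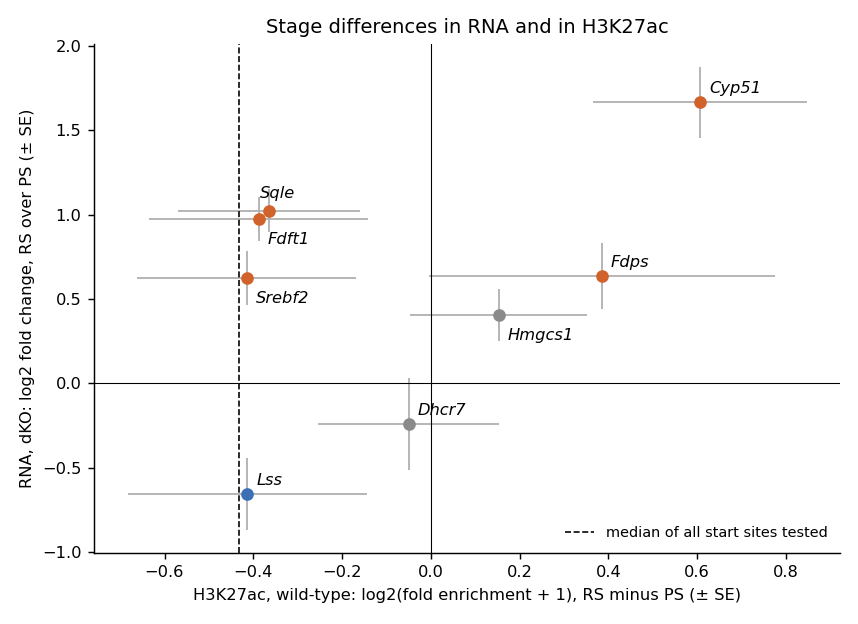
The log2 fold change of RNA in dKO cells (vertical, with SE) against the log2 difference of H3K27ac at the start site in wild-type cells (horizontal, with SE), RS against PS, for the 8 genes, with colours by the RNA call as in the pathway plot. The dashed line is the median of all start sites, −0.43; *Cyp51* lies farthest from it and highest, at 0.61 and 1.67, whereas *Fdft1*, *Sqle*, *Srebf2* and *Lss* lie beside the line with RNA changes from −0.65 to 1.02.

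In both replicates of a stage, PS had 15 peak regions and RS 15, of which 14 (93.3%) and 12 (80.0%) overlapped a region of the other stage by at least 1 base, against 67.3% and 60.6% over all regions. With a reciprocal overlap of 50%, 7 of 15 (46.7%) were shared in each direction, against 39.4% and 40.6% over all regions, so the gap between these genes and all regions depended on the overlap required. The regions of these genes include the start-site peak of every gene in each stage, all shared by at least 1 base. All regions were not matched to them for distance to a start site or for strength. Regions were joined from all peaks of a stage, so sharing could rest on peaks not assigned to the 8 genes. This was so for the *Sqle* region at −9.68 to −9.24 kb in PS and the *Hmgcs1* region at −13.3 to −8.3 kb in RS. The region unshared in PS was in *Fdft1*, 12.6 to 13.4 kb into the gene. It had 5.35 and 7.13 in PS, but also 7.32 in RS replicate 1, and had no summit in RS replicate 2. The 3 unshared in RS were at −13.8 to −13.4 kb from the start of *Hmgcs1*, at −2.26 to −1.57 kb from that of *Srebf2* and 47.6 to 48.3 kb into *Srebf2*, where fold enrichment was 4.48 and 3.48 and PS had no summit.

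The following regions were chosen after their peaks were seen, and are given without a test. *Sqle* had a domain inside the gene, 2.9 to 5.2 kb from its start, whose highest summit was at 5.76 and 4.93 in PS and 15.1 and 11 in RS. In RS replicate 1 it was joined to the start-site peak in 1 interval of 7780 bases, against a start-site peak of 2469 and 2728 bases in PS and 3127 in RS replicate 2. The interval in RS replicate 1 is in the sample with the most peaks, whose start-site peaks were also the widest of the 4 samples for 7 of the 8 genes. *Dhcr7* had a peak 6.1 to 7.9 kb from its first start, around the internal start site and the second *Dhcr7* sequence shown, with a CCAAT box 85 bases and GC boxes 187 and 171 bases before that start. Its highest summit was at 10.3 and 11 in PS, level with the peak at the first start, and at 4.48 and 5.22 in RS, where the samples lay below both PS samples and the peak was split in pieces.

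**Figure D5:**
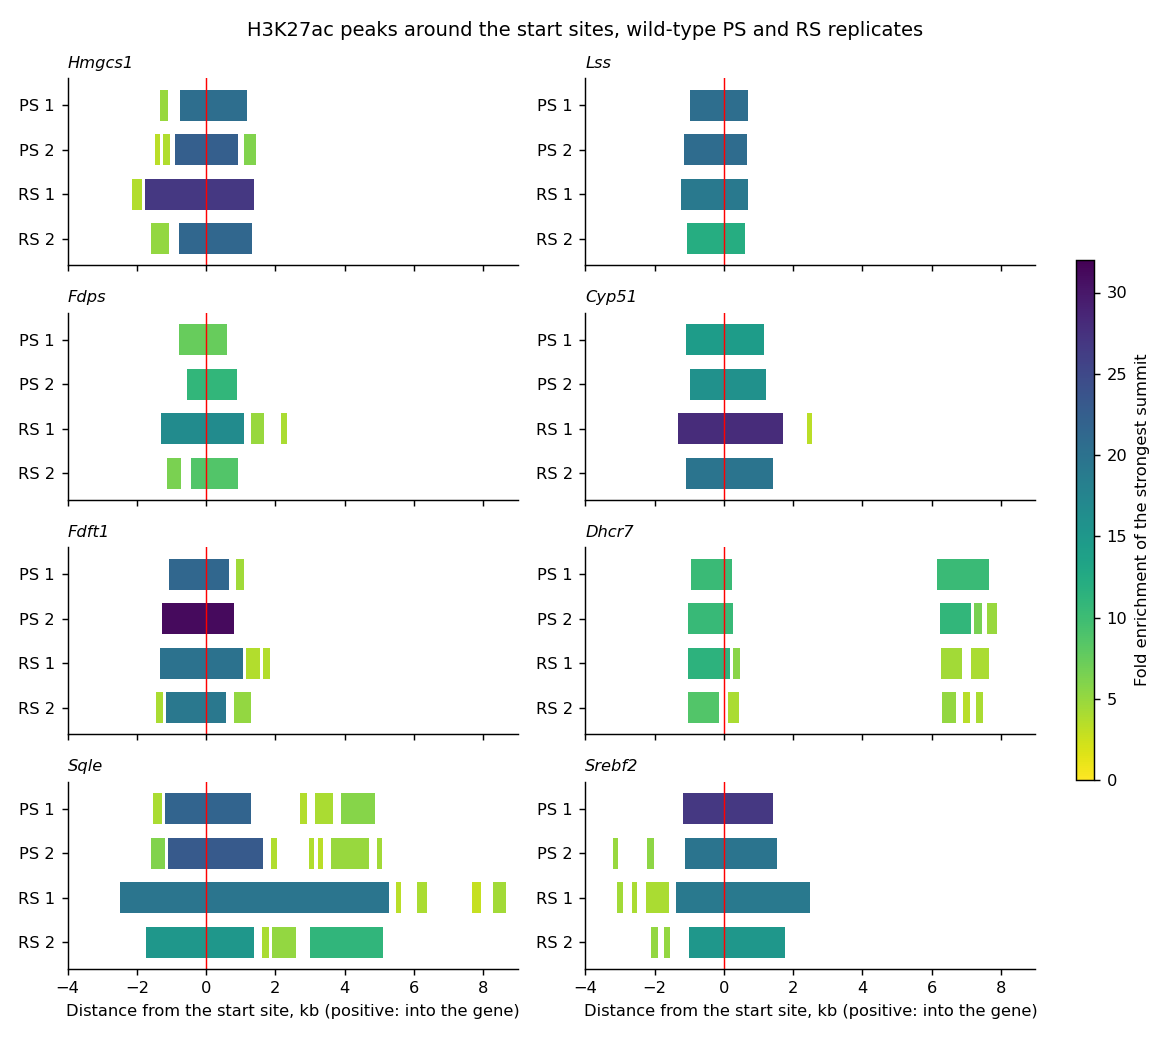
H3K27ac peaks from 4 kb before to 9 kb after the start site (red line, position 0) of each gene in the 4 wild-type samples, 1 row per sample, coloured by the fold enrichment of the strongest summit in the peak. All start sites carry a peak in each sample except *Dhcr7* in RS replicate 2, where peaks flank it; the domain inside *Sqle* is darker in RS and the one inside *Dhcr7* darker in PS.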

How the data were processed

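Per the labels, wild-type PS and RS were profiled for H3K27ac by ChIPmentation, and RNA of *Rnf8;Scml2*-dKO PS and RS was amplified with the NuGEN Ovation system before Nextera XT library preparation. The methods state that 1 dKO male can supply both stages, but do not tie replicate numbers to mice, so p-values measure the spread between 2 libraries a group, which may in part be technical. For RNA, the authors used STAR (2.4.2a) on the mm10 genome, kept unique alignments with at most 2 mismatches, split reads between RefSeq isoforms by expectation maximization and deposited estimated counts of reads, which are whole numbers, and RPKM. Reads that align equally well to a near-identical copy of a gene are lost by this filter. For ChIP-seq, the authors aligned reads with Bowtie and called peaks per sample with MACS2 (1.1.1 and 2.1.0.20140616 in the submitters' processing notes, other versions in the methods). The deposited lists hold, per summit, the pileup signal (fragments, not scaled between samples), its fold enrichment ratio over the background, and −log10 p and q values. 1 is added to pileup and background before the ratio is taken.

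The 8 genes and all lists were chosen with earlier results of these data known. Rows were summed to genes and tested with edgeR (4.0.16, TMM, quasi-likelihood), keeping genes with at least 10 reads in at least 2 libraries. Summits of 1 interval were joined into a peak. The level at a start site was log2(1 + highest fold enrichment of a peak that overlaps the 2 kb on either side, 0 where none). It was tested with limma (3.58.1) over start sites with a peak in at least 2 samples. Calls needed a Benjamini-Hochberg adjusted p under 0.05 over all features and 1.5-fold. DESeq2 (1.42.0), other scalings, filters, windows, pseudocounts and each library left out were alternatives, and the scripts were tested on simulated data. The genes named from the other pathway lists were the 3 called with the largest change in each, and all 8 genes are given whatever they show. One gene of these lists is not reported here and was left out of the counts. One RNA read is 8.137e-06% to 1.036e-05% of a library, and intervals from read numbers would cover counting error only. Promoters were read from RefSeq (GRCm38.p6), 250 bases before the start, up to any annotated exon. Sequence was in the table for 5 of the 8 genes.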

Additional observations from a re-analysis of the deposited data

How the results depend on the processing

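In RNA, *Cyp51*, *Fdft1* and *Sqle* were called in all 12 alternatives. The number of the 8 genes called higher in RS was 3 with limma on log2(RPKM + 1) or log2(RPKM + 0.1), where *Fdps* and *Srebf2* were not called, and 3 to 6 when 1 library was left out. The number called lower was 0 (*Lss* lost) with DESeq2, with isoform rows and with both limma fits, and 0 to 1 without 1 library. Genes of the other lists called higher numbered 5 with DESeq2, 4 with limma on log2(RPKM + 1) and 5 to 9 without 1 library, and those called lower 9 to 20. The *Dhcr7* change ran from −0.53 to 0.16 without 1 library. Over all genes, 8497 were called, and 6039 to 8654 without 1 library.

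For H3K27ac, 1 of the 8 genes (*Cyp51*) was called higher after centring, after quantile normalization and among start sites with a peak in all 4 samples, where 4897 start sites were called in place of 2178. *Fdft1*, *Sqle* and *Dhcr7* changed sign with centring (0.0077, 0.030 and 0.35) and with quantile normalization (0.0066, 0.046 and 0.34). Leaving out 1 library gave 0 to 4685 calls over all start sites. There were 0 without PS replicate 1 (2584 at an unadjusted p under 0.05) or PS replicate 2 (2271), 4685 without RS replicate 1 and 522 without RS replicate 2. Of the 8 genes, 0 to 1 were then called lower. The difference ran from −0.0016 to 0.31 for *Hmgcs1*, −0.047 to 0.82 for *Fdps*, −0.23 to 0.13 for *Dhcr7*, 0.36 to 0.85 for *Cyp51*, −0.65 to −0.12 for *Fdft1*, −0.54 to −0.19 for *Sqle*, −0.72 to −0.11 for *Lss* and −0.62 to −0.20 for *Srebf2*. A lone library left in a group is assumed to vary like the other group. A reciprocal overlap of 50% left 7 of 15 PS regions shared in place of 14. The cause of these changes was not tested, other than that fewer samples or start sites entered some fits.

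Replicate numbers are not stated to pair the samples, and with 2 pairs the deviations of same-numbered libraries correlated at 0.22 in RNA and 0.0026 in H3K27ac. With the replicate block, 8723 genes and 1181 start sites were called, and no call of the 8 genes changed in either assay. The depth of H3K27ac is known only through the background, and 2 libraries a group limit all tests.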
